A study of Mus musculus with 6 samples.

Results

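Actin isoforms and contractile genes were examined in 3T3-L1 cells in which RBMS1, an RNA-binding protein, was knocked down. The 10 genes, of 45706 in the table, were Acta1, Acta2, Actb, Actg1, Actg2, Tagln, Cnn1, Myl9, Tpm1 and Tpm2, and they were found by gene name. The group was chosen by the strong fall of Acta1 in the knockdown, measured in these same samples, so the fold change of Acta1 in this comparison is given as a description without a test. 3T3-L1 is a mouse fibroblast line that turns into adipocytes under hormonal stimulation. RNA from 3 scrambled control and 3 RBMS1 knockdown samples was sequenced on day 7 after treatment with insulin, dexamethasone, IBMX and rosiglitazone, which both groups received. The knockdown came from a lentiviral shRNA in puromycin-selected stable cells, and the control cells carried a scrambled shRNA (genotypes labelled RBMS1KD and WT). The methods do not say whether pools or clones were used. The methods call the samples biological replicates and state in general that experiments were repeated independently, while the labels do not say which step was repeated for these samples, so the p-values measure the spread between them.

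Actin is the protein of the thin filament. Actb and Actg1 encode the cytoplasmic actins found in nearly every cell, Acta1 and Actc1 the actins of skeletal and cardiac muscle, and Acta2 and Actg2 the actins of smooth muscle. Tropomyosins (Tpm1, Tpm2) lie along the filament and control access of myosin to it, Myl9 is a regulatory light chain of smooth muscle and nonmuscle myosin, and Tagln (transgelin) and Cnn1 (calponin) are actin-binding proteins of smooth muscle and of contractile fibroblasts. Many of these genes are targets of serum response factor, SRF, whose cofactors of the myocardin family sense the pool of unpolymerized actin. Fibroblastic preadipocytes have prominent stress fibers, which are taken apart as the cells round up and store lipid.

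The actin genes are close in sequence. Over the coding region, Acta1 was identical to Actc1 at 86.2% of bases, to Acta2 at 85.4%, to Actg2 at 84.9%, to Actb at 84.8% and to Actg1 at 83.6%. The last 60 coding bases, ending with the stop codon, are shown from the GENCODE M21 transcripts (GRCm38) because short reads are assigned to a gene through such differences. Capitals mark bases that differ from Acta1.
Acta1: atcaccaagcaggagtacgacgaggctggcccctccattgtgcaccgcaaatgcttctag
Acta2: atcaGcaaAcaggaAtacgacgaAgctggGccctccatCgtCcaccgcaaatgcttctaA
Actc1: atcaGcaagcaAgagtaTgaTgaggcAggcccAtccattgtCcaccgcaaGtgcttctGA
Actg2: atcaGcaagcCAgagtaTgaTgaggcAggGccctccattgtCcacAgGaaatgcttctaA
Actb: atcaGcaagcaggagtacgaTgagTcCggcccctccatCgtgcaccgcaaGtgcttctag
Actg1: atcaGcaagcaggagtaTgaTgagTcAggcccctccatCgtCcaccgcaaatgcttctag
The number of differing bases in this stretch was 8 for Acta2, 10 for Actc1, 11 for Actg2, 6 for Actb and 7 for Actg1. Of all 31-base words in the transcripts of a gene, 4.11% in Acta1, 1.39% in Acta2 and 1.21% in Actg2 also occurred in another gene. The share was 23.5% in Actb and 40.2% in Actg1. The estimated counts of these last genes were not whole in any of the 6 samples (tolerance 1.0e-06), so part of their counts came from reads divided among features. The largest count of Actg-ps1, a γ-actin pseudogene, was 2.41. For Acta1, 1 of the 6 values was not whole.

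Promoter sequences from RefSeq (GRCm38.p6), 250 bases before to 50 bases after the start, matched 7 of the 10 genes. The CArG box is the binding motif of SRF. It was searched on both strands in its strict form, CC and GG with only A or T between them, as in the stretches marked below. An exact match was held by 3 of these 7 promoters (Acta1, Actg1 and Myl9), against 1.63% of the 32851 promoters in the table. No exact match was found in the windows of Acta2, Cnn1, Tpm1 and Tpm2, which says only that those windows lack the strict form. The Acta2 window holds ccctatatgg and ccttgtttgg, in which a C or a G interrupts the A and T stretch. Such near matches were not searched for in any promoter. The MCAT motif (CATTCC, either strand), bound by TEAD factors, was found in Acta1, Acta2 and Tpm1 and in 14.7% of all promoters. The promoters of Acta1, Acta2, Actg1 and Myl9 are shown, 5′ to 3′ on the strand of the gene, as the 3 with a CArG match and, for comparison, Acta2, the other muscle actin of the group with a promoter sequence. Capitals mark the CArG match. It begins at position -73 from the RefSeq start in Acta1 (chr8:123894726-123895025, minus strand), at -90 in Actg1 (chr11:120348446-120348745, minus strand) and at -161 in Myl9 (chr2:156775214-156775513, plus strand). The Acta2 window is chr19:34255324-34255623, minus strand.
Acta1: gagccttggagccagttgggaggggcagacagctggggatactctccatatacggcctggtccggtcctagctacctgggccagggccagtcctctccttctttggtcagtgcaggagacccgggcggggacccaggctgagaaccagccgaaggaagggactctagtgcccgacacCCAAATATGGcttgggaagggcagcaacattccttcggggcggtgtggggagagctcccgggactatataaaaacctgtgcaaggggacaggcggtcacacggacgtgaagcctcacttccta
Actg1: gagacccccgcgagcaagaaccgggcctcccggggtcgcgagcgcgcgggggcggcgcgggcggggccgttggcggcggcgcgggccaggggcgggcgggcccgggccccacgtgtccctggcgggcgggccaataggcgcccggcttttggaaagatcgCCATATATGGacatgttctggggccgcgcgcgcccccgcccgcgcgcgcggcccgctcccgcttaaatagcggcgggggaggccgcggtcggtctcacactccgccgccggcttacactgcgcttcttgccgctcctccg
Myl9: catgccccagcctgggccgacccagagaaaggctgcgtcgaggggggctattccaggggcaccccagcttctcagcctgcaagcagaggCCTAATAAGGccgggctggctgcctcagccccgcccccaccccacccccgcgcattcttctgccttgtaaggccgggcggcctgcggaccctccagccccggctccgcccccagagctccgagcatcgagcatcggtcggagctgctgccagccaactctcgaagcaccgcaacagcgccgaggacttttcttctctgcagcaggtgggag
Acta2: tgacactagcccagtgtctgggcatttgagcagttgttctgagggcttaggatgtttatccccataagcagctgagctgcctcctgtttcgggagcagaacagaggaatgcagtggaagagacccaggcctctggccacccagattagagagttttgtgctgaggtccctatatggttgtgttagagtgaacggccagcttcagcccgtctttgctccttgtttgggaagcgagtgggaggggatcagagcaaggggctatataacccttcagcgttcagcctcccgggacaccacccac
A match is a description of the sequence.

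Total counts per sample ranged from 3142695 to 11073098, and 3 counts correspond to 0.220 to 1.49 CPM (counts scaled to the library size times edgeR's TMM factor). These limits cover counting error only. Rbms1 was at 113, 102 and 99.6 CPM in scrambled control replicates 1, 2 and 3 and at 49.2, 61.4 and 84.0 CPM in RBMS1 knockdown replicates 1, 2 and 3. Its log2 fold change was -0.69 (standard error, SE, 0.20, adjusted p = 0.185, quasi-likelihood test of edgeR, adjusted by the Benjamini-Hochberg method over 11440 tested genes). A pair of libraries stood apart. Scrambled control replicate 2 was the shallowest, with 43.0% of its counts from genes derived from ribosomal RNA (8.12% to 17.8% in the others). RBMS1 knockdown replicate 1 had lower levels of fibroblast markers than the other knockdown samples (summed level 8745 CPM, against 13852 to 18229 CPM in the other 5 samples, with all 12 tested markers below the mean of the other knockdown samples). The adipocyte markers in that library were higher than in the other knockdown samples (summed level 24648 CPM, 14 of 15 markers higher), while the controls held 26059 to 28885 CPM. The fold changes of the 10 genes and the medians of the gene lists are therefore also given without RBMS1 knockdown replicate 1.

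Genes were called at an adjusted p of 0.1 or less, which gave 0.909% of tested genes lower and 0.315% higher in the knockdown, and 0.463% at an adjusted p under 0.05. Of the 10 genes, 9 were tested. Acta1, which chose the group, was called lower, so nothing is read from that call, and none of the other 8 was called at an adjusted p of 0.1 or at an unadjusted p of 0.05 by edgeR, or at an adjusted p of 0.1 by DESeq2 or limma-voom. The median log2 fold change of the 9 was -0.19, with 5 below 0 and 4 above, against 0.0044 over all tested genes. Acta1 is counted among the 5, so no lean of the group is read from this median. The groups did not overlap for Acta1 alone. Over all tested genes the groups did not overlap for 18.5%, and for 9.55% with the knockdown lower. Without RBMS1 knockdown replicate 1, 3.63% of tested genes were called lower and 2.30% higher. Acta1 was again lower and Acta2 and Actg2 rose. The median of the 9, Acta1 included, moved to 0.20, with Acta1 alone below 0.

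**Figure D1:**
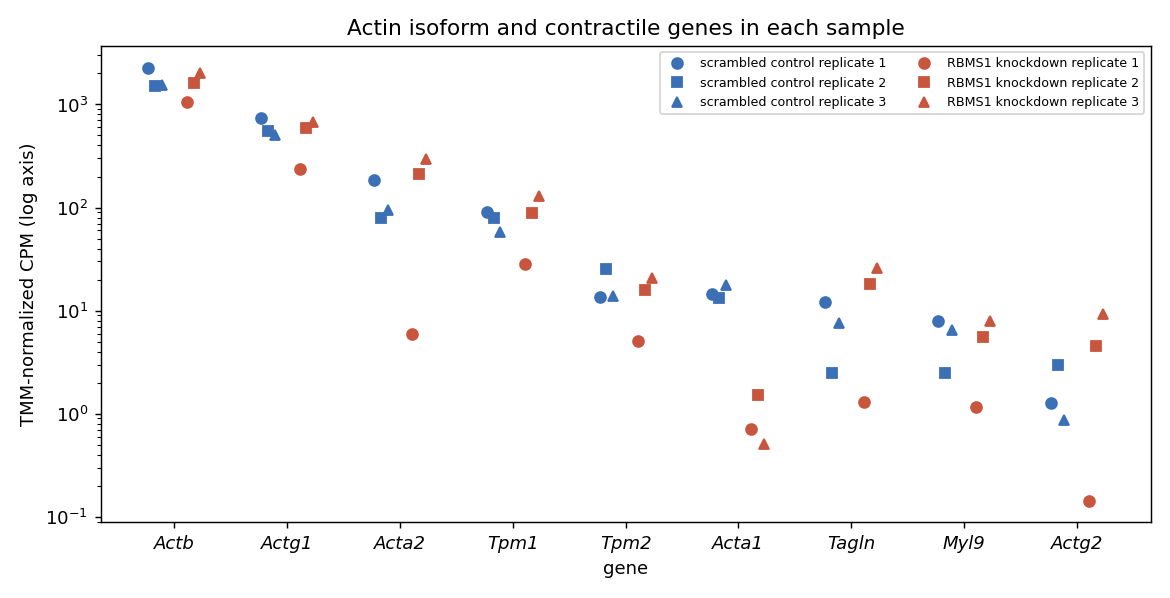
TMM-normalized CPM (log axis) of the 9 genes with counts in each sample, with blue symbols for scrambled control, red for RBMS1 knockdown, and 1 symbol shape per replicate number. Acta1 lies between 0.514 and 1.52 CPM in the knockdown and between 13.4 and 17.5 in the control, while RBMS1 knockdown replicate 1 is the lowest sample for every other gene.

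Acta1 (ENSMUSG00000031972, chr8:123891769-123894751, minus strand) encodes skeletal muscle α-actin. Its levels were 14.6, 13.4 and 17.5 CPM in scrambled control replicates 1 to 3 (91, 27 and 102 counts) and 0.719, 1.52 and 0.514 CPM in RBMS1 knockdown replicates 1 to 3 (5, 13 and 7 counts). Each knockdown sample lay below each control, and the means were 15.2 ± 2.14 and 0.917 ± 0.532 CPM (SD, n = 3). The log2 fold change was -4.06 (SE 0.41), a 16.7-fold lower level. It was -3.94 (SE 0.46) without RBMS1 knockdown replicate 1. This was the 6th lowest log2 fold change of all tested genes. The log2 difference between RBMS1 knockdown replicate 1 and the other knockdown samples was smaller for Acta1 (-0.26) than for the other tested genes of the group. With 5, 13 and 7 counts and a prior count of 2 in these log2 levels, a large drop in Acta1 could hardly show.

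Acta2 (ENSMUSG00000035783, chr19:34241090-34255590, minus strand) encodes smooth muscle α-actin, a marker of myofibroblasts. It was at 184, 78.4 and 94.8 CPM in the control and at 5.89, 209 and 298 CPM in the knockdown. RBMS1 knockdown replicate 1 was below every control and the other knockdown samples were above every control, so the groups overlapped. The log2 fold change was 0.52 (SE 0.91, adjusted p = 0.865, edgeR). It was -0.15 (adjusted p = 0.972) without RBMS1 knockdown replicate 3. Without replicate 1 instead, Acta2 was 2.14-fold higher in the knockdown (log2 fold change 1.09, SE 0.31, adjusted p = 0.0938, edgeR).

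Actg2 (ENSMUSG00000059430, chr6:83512905-83536265, minus strand), which encodes the smooth muscle γ-actin, was a low-abundance gene. Its levels were 1.28, 2.98 and 0.860 CPM in the control (8, 6 and 5 counts) and 0.144, 4.56 and 9.18 CPM in the knockdown (1, 39 and 125 counts). As for Acta2, RBMS1 knockdown replicate 1 was lowest and the other knockdown samples were above every control. The value of 1 count in RBMS1 knockdown replicate 1 lies under the limit of 3 counts. The log2 fold change was 1.68 (SE 0.98, adjusted p = 0.528, edgeR), and 2.23 (SE 0.55, adjusted p = 0.0609) without that sample. It was 0.70 (adjusted p = 0.858) without RBMS1 knockdown replicate 3.

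The cytoplasmic actins were the most abundant genes of the group. Actb (ENSMUSG00000029580, chr5:142903115-142906754, minus strand), β-actin, was at 2279, 1513 and 1541 CPM in the control and at 1061, 1597 and 2028 CPM in the knockdown. Actg1 (ENSMUSG00000062825, chr11:120345690-120348542, minus strand), cytoplasmic γ-actin, was at 734, 554 and 508 CPM in the control and at 235, 587 and 672 CPM in the knockdown. For both genes the groups overlapped, and RBMS1 knockdown replicate 1 was the lowest sample. The log2 fold change of Actb was -0.19 (SE 0.29, adjusted p = 0.846, edgeR) and that of Actg1 was -0.26 (SE 0.34, adjusted p = 0.807). Leaving out RBMS1 knockdown replicate 1, these became 0.04 (SE 0.24, adjusted p = 0.963) and 0.08 (SE 0.19, adjusted p = 0.887).

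Tagln (ENSMUSG00000032085, chr9:45929619-45936058, minus strand), transgelin, cross-links actin filaments. It was at 12.2, 2.48 and 7.57 CPM in the control and at 1.29, 18.1 and 26.0 CPM in the knockdown. As for Acta2 and Actg2, RBMS1 knockdown replicate 1 lay below and the other knockdown samples above all controls. The log2 fold change was 0.97 (SE 0.80, adjusted p = 0.679, edgeR), and 1.51 (SE 0.44, adjusted p = 0.103) without RBMS1 knockdown replicate 1, which missed the threshold. It was 0.33 (adjusted p = 0.919) without RBMS1 knockdown replicate 3. The lowest control value was that of the shallow control replicate 2.

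Cnn1 (ENSMUSG00000001349, chr9:22099216-22109630, plus strand), calponin, had 0 counts in all 6 samples and was not tested, which allows up to 0.220 to 1.49 CPM per sample. Myl9 (ENSMUSG00000067818, chr2:156775420-156781658, plus strand) was at 7.85, 2.48 and 6.54 CPM in the control and at 1.15, 5.61 and 7.85 CPM in the knockdown. Its groups overlapped, with RBMS1 knockdown replicate 1 lowest. The log2 fold change was -0.25 (SE 0.60, adjusted p = 0.909, edgeR), and 0.20 (SE 0.43, adjusted p = 0.871) without that sample.

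The tropomyosins also overlapped between the groups. Tpm1 (ENSMUSG00000032366, chr9:67022590-67049406, minus strand) was at 90.7, 78.9 and 57.3 CPM in the control and at 28.3, 89.1 and 131 CPM in the knockdown. Tpm2 (ENSMUSG00000028464, chr4:43514711-43523765, minus strand) was at 13.6, 25.3 and 13.8 CPM in the control and at 5.03, 15.9 and 20.8 CPM in the knockdown. Both were lowest in RBMS1 knockdown replicate 1. The log2 fold changes were 0.13 (SE 0.44, adjusted p = 0.935, edgeR) for Tpm1 and -0.30 (SE 0.46, adjusted p = 0.841) for Tpm2. They were, without RBMS1 knockdown replicate 1, 0.55 (SE 0.22, adjusted p = 0.236) and 0.10 (SE 0.30, adjusted p = 0.919).

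**Figure D2:**
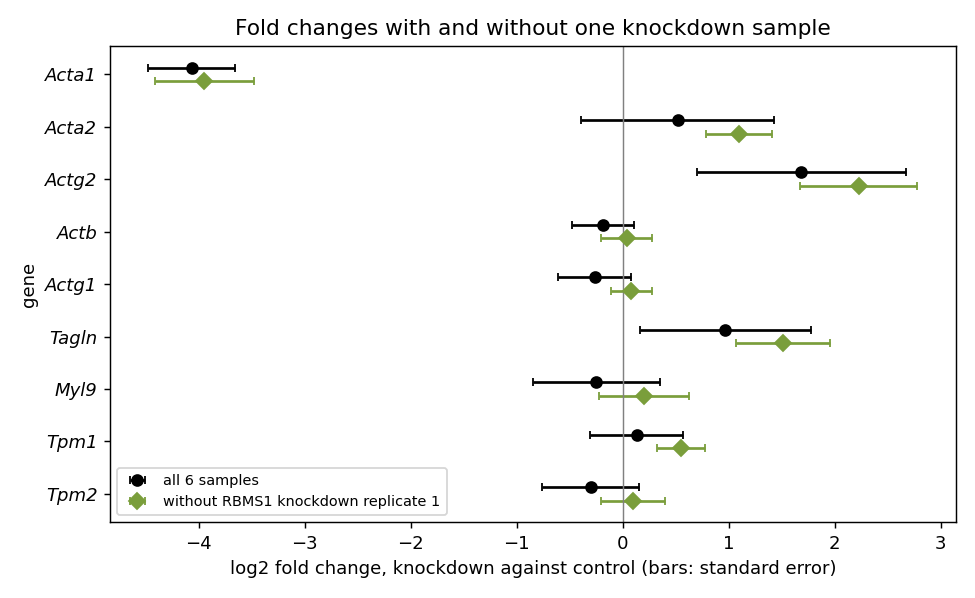
Log2 fold change of each tested gene, RBMS1 knockdown against scrambled control, with the standard error as a bar, over all 6 samples (black circles) and without RBMS1 knockdown replicate 1 (green diamonds). Acta1 lies at -4.06 and -3.94, whereas the other 8 genes move upward without that sample and all lie above 0.

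The level per length, in TMM-normalized CPM per kilobase of merged exons, ordered the genes within the scrambled control. Merged exons join all annotated transcripts of a gene (6.485 kb for Tpm1 and 1.536 kb for Acta1). A gene expressed mainly as a shorter transcript is therefore placed too low. Actb came first with a mean of 663, followed by Actg1 with 225 and Acta2 with 54.3. Tpm1 (11.7) and Acta1 (9.88) overlapped in their ranges over the control samples, as did Tpm2 (6.04) and Myl9 (4.84), Myl9 and Tagln (3.73), and Tagln and Actg2 (1.10). Of these, Myl9 was above Tagln within each of the 3 control samples, at 6.76 and 6.13, 2.14 and 1.25, and 5.63 and 3.81 in replicates 1 to 3. The range of Acta1 was 8.72 to 11.4, against 4.68 to 8.70 for Tpm2. In the knockdown Acta1 was at a mean of 0.597 on this scale, below the means of all other detected genes of the group. This low place restates the fall that chose the group. In RBMS1 knockdown replicate 1, Actg2 (0.0923) was below Acta1 (0.468).

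The share of each actin in the summed counts of the 6 actin genes (the 5 listed and Actc1) needs no scaling between libraries. Acta1 made up 0.454%, 0.620% and 0.812% of actin counts in scrambled control replicates 1 to 3, and 0.0552%, 0.0633% and 0.0171% in RBMS1 knockdown replicates 1 to 3. The 95% exact binomial (Clopper-Pearson) intervals of the control samples reached down to 0.366% and those of the knockdown samples up to 0.129%, which describes the counting error of the gene that chose the group. Group means were 0.629 ± 0.179% and 0.0452 ± 0.0247% (SD, n = 3). Acta2 took 5.74%, 3.63% and 4.38% of actin counts in the control and 0.452%, 8.73% and 9.89% in the knockdown. Against Acta2 alone, the picture for RBMS1 knockdown replicate 1 differed, because both muscle actins were low there. There were 7.91, 17.1 and 18.5 Acta1 counts per 100 Acta2 counts in the control and 12.2, 0.725 and 0.173 in the knockdown, so this ratio separated the groups only without RBMS1 knockdown replicate 1. Actb made up 70.0% to 71.3% of actin counts in the control, and 81.4%, 66.5% and 67.4% in the knockdown. Actg1 held 22.8% to 25.6% in the control and 18.1%, 24.5% and 22.3% in the knockdown. Actc1 had 0 counts in every sample, which allows a share of up to 0.00732% to 0.0689% (3 counts of the total).

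**Figure D3:**
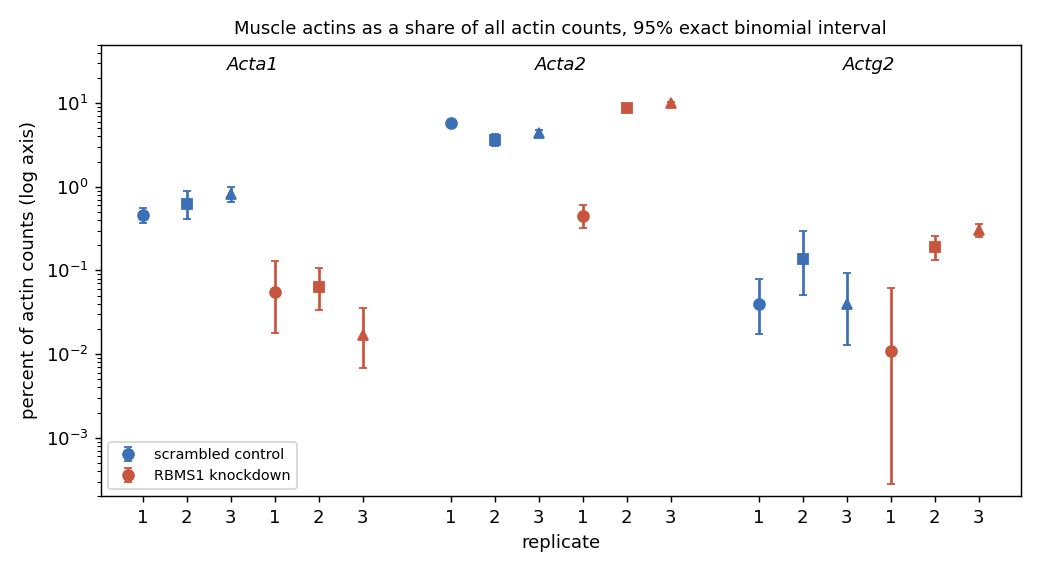
Acta1, Acta2 and Actg2 as a percent of all actin counts (log axis) in each replicate, with blue for scrambled control, red for RBMS1 knockdown, and bars for the 95% exact binomial interval, which covers counting error only. All knockdown shares of Acta1 lie below 0.129% with their intervals, and RBMS1 knockdown replicate 1 has the lowest Acta2 share, 0.452%.

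The spread among the knockdown samples was described by the log2 level of RBMS1 knockdown replicate 1 minus the mean of the other knockdown samples. All 9 tested genes were lower in RBMS1 knockdown replicate 1, 7 of them by more than 2-fold, with a median of -1.92. Over all tested genes, 49.9% were lower, 7.41% by more than 2-fold, and the median was 0.0012. The difference was -5.34 for Acta2, -4.00 for Actg2 and -3.81 for Tagln, and only 14, 19 and 22 tested genes, respectively, were as low or lower. It was -2.28 for Myl9, -1.92 for Tpm1, -1.80 for Tpm2, -1.41 for Actg1 and -0.76 for Actb. Acta2, Actg2 and Tagln thus differed most between these samples and Actb little, while Acta1 differed least but had too few knockdown counts to show a large drop. The fibroblast markers moved the same way (median -1.25 over 12 genes) and the adipocyte markers the opposite way, and their part in these differences was not tested.

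**Figure D4:**
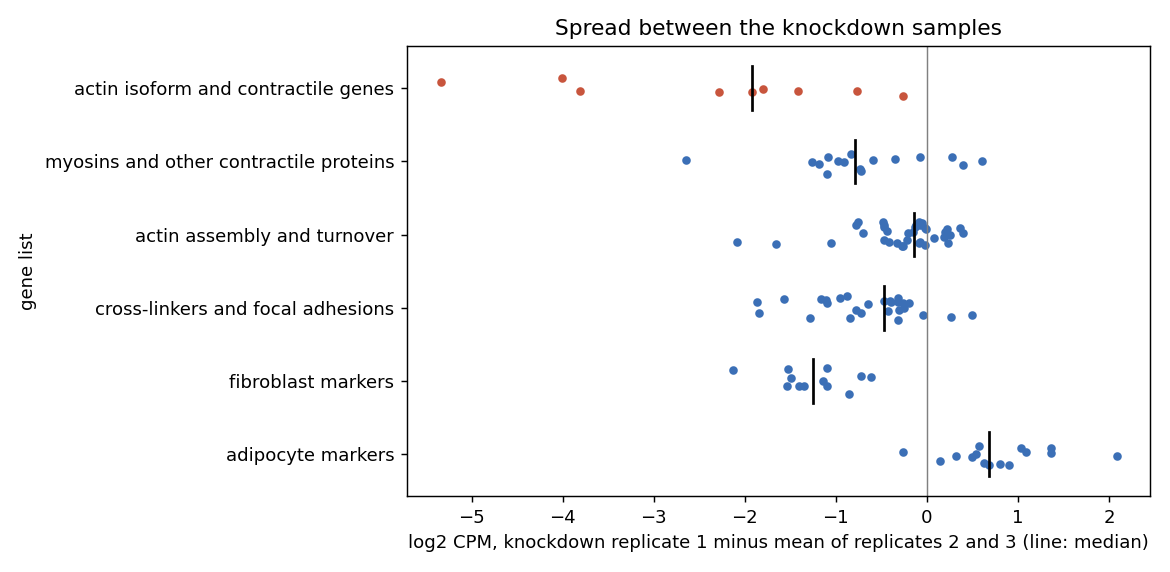
Log2 CPM of RBMS1 knockdown replicate 1 minus the mean of replicates 2 and 3 for the tested genes of each list, with 1 point per gene and a line at the median. The actin isoform and contractile genes (red) have a median of -1.92, below that of the fibroblast markers (-1.25), and most adipocyte markers lie above 0.

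Other genes of actin structure were taken from 3 lists of 83 genes, of which 79 were tested. None was called by edgeR, while 13 had an unadjusted p under 0.05 (7 lower and 6 higher), as did 12.4% of all tested genes, and DESeq2 called Actr3. The median log2 fold change was 0.16, with 26 genes below 0 and 53 above. Without RBMS1 knockdown replicate 1, 5 of 80 tested genes were called, all higher, against 2.30% of all tested genes called higher in that fit. These were named after their values were seen. In the same fit, Cald1, the actin- and myosin-binding caldesmon (log2 fold change 0.70), Actr3, a subunit of the Arp2/3 complex that branches actin filaments (0.64), Tmsb10, which binds actin monomers (0.77), Flnc, a filamin cross-linker (1.11), and Enah, which promotes filament elongation (0.74), rose. These genes lie on chromosome 1 (Actr3, Enah) or 6 (Cald1, Tmsb10, Flnc). Over all 6 samples, removing chromosome medians lowered the log2 fold change of Actr3 from 0.56 to 0.32, of Enah from 0.47 to 0.23, of Cald1 from 0.38 to 0.20, of Tmsb10 from 0.39 to 0.21 and of Flnc from 0.79 to 0.60.

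Among the myosins and other contractile proteins, 16 of 20 were tested, 7 were below 0 and the median log2 fold change was 0.03. Myh9, the heavy chain of nonmuscle myosin IIA, was at 633 ± 236 CPM in the knockdown against 610 ± 62.5 CPM in the control. Tns1, a tensin that links actin to integrins, was at 544 ± 152 against 519 ± 42.3 CPM. Of the assembly and turnover genes, all 36 were tested, 8 were below 0 and the median was 0.19. Cfl1, the filament-severing cofilin, was at 329 ± 61.9 against 291 ± 47.8 CPM, and Gsn, gelsolin, at 257 ± 53.5 against 356 ± 57.1 CPM. All 27 cross-linker and focal adhesion genes were tested, with 11 below 0 and a median of 0.16. Flna, filamin A, was at 832 ± 483 against 724 ± 139 CPM, and Itgb1, integrin β1, at 276 ± 34.0 against 358 ± 29.1 CPM (SD, n = 3 throughout). Itgb1 lies on chromosome 8, and its log2 fold change turned from -0.37 to 0.02 with chromosome medians removed. None of these named genes passed the test over all 6 samples. The medians of the 3 lists without RBMS1 knockdown replicate 1 were 0.25, 0.32 and 0.25. RBMS1 knockdown replicate 1 was lower than the mean of the other knockdown samples in 13 of 16, 28 of 36 and 25 of 27 genes of these lists, in the same order.

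Acta1 is a gene of striated muscle, and other markers of that tissue were read beside it. Of 29 such markers, 11 had no count in any sample, including Actc1, Myod1, Myog and Ckm, and 2 were tested. Des, desmin, was at 26.5 ± 2.63 CPM in the control and 25.5 ± 7.15 CPM in the knockdown (SD, n = 3), with a log2 fold change of -0.06 (SE 0.22, adjusted p = 0.947, edgeR) and of -0.29 without RBMS1 knockdown replicate 1. Actn3, a muscle α-actinin, was at 3.29 ± 2.34 and 1.67 ± 0.869 CPM, with log2 fold changes of -1.04 (SE 0.60, adjusted p = 0.524) and -0.71. The summed level of the 29 markers was 31.8 to 36.1 CPM in the control and 24.2 to 37.5 CPM in the knockdown, most of it Des. Apart from Des and Actn3, no marker of this list exceeded 12 counts in any sample.

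The labelled cells showed their defining markers. All 15 adipocyte markers were tested, 14 were below 0 with a median log2 fold change of -0.43, and Retn, resistin, was called lower (-1.67, SE 0.36, adjusted p = 0.0967, edgeR). The marker above 0 was Cd36, with a log2 fold change of 0.72 (SE 0.21, adjusted p = 0.183, edgeR). Retn and Lpl lie on chromosome 8, whose genes were lower as a whole. With chromosome medians removed, Retn was no longer called (-1.28, adjusted p = 0.219) and the log2 fold change of Lpl moved from -0.87 to -0.48. Lpl, lipoprotein lipase, was at 12915 ± 1392 CPM in the control and 7051 ± 2738 CPM in the knockdown, and Fabp4, a fatty acid carrier, at 3270 ± 910 and 2371 ± 214 CPM (SD, n = 3). Without RBMS1 knockdown replicate 1, 9 of the 15 were called lower, against 3.63% of all tested genes in that fit, and the median was -0.70. Of 13 fibroblast markers, 12 were tested, none was called (2 had an unadjusted p under 0.05 in edgeR), 9 were below 0 and the median was -0.16. The direction of this median turned without RBMS1 knockdown replicate 1, to 0.13 with 4 of 12 below 0, and Pdgfra fell (log2 fold change -0.63, adjusted p = 0.0665, edgeR). Col1a2 was at 3071 ± 267 and 4065 ± 1907 CPM and Col3a1 at 3370 ± 314 and 2862 ± 860 CPM in control and knockdown. Leukocyte, endothelial and epithelial markers summed to at most 1.99 CPM in any sample, with Ptprc, Adgre1, Cd3e and Epcam at 0. Fewer cells of a type and less RNA per cell cannot be told apart in these bulk samples.

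The 5 tested genes most like Acta1, by the root mean square difference of mean-centered log2 CPM over the 6 samples, were Grb10 (0.511), P3h3 (0.530), Tom1l1 (0.556), Rasd1 (0.615) and Pag1 (0.625). Likeness here largely restates a fall in the knockdown, so it is given as a description. Grb10, an adaptor of growth factor receptors, was at 21.6, 14.4 and 13.6 CPM in the control and at 1.29, 3.74 and 1.25 CPM in the knockdown. P3h3, a collagen prolyl hydroxylase, was at 14.9, 10.4 and 17.7 CPM and at 0.863, 2.69 and 1.61 CPM. Tom1l1 had 11, 10 and 23 counts in the control and none in the knockdown. Within the group itself, the nearest gene to Acta1 was Actg1 at a difference of 1.80, which ranked 2219 among all tested genes, and the farthest was Actg2 at 2.64.

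Acta1 lies near the end of chromosome 8, where the levels of most genes were lower in the knockdown. The median log2 fold change of the 624 tested genes of that chromosome was -0.38, against 0.02 elsewhere, and 90.1% of them were below 0, against 47.3% elsewhere. Leaving out RBMS1 knockdown replicate 1, the median there was -0.38, against 0.022 elsewhere, with 86.0% below 0. Within 1 Mb of the Acta1 start, 32 genes were tested, 29 were below 0, and the values ran from -1.02 to 0.48 with a median of -0.38. The nearest tested genes on its sides were Nup133 (54.5 kb away), with a log2 fold change of 0.09 (SE 0.25, adjusted p = 0.927, edgeR), and Rab4a (88.8 kb away), with -1.02 (SE 0.28, adjusted p = 0.157). Beyond 1 Mb, Tsnax (start at 1.12 Mb from that of Acta1) was also called lower, at -2.13 (adjusted p = 0.0116, edgeR). So was Fbxo31 (at -2.32 Mb), with -3.16 (adjusted p = 0.0842). Acta1 had the lowest fold change of the chromosome and stood 3.68 below its median on the log2 scale. With the median of each chromosome removed from each sample, its log2 fold change was -3.67 (SE 0.41).

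**Figure D5:**
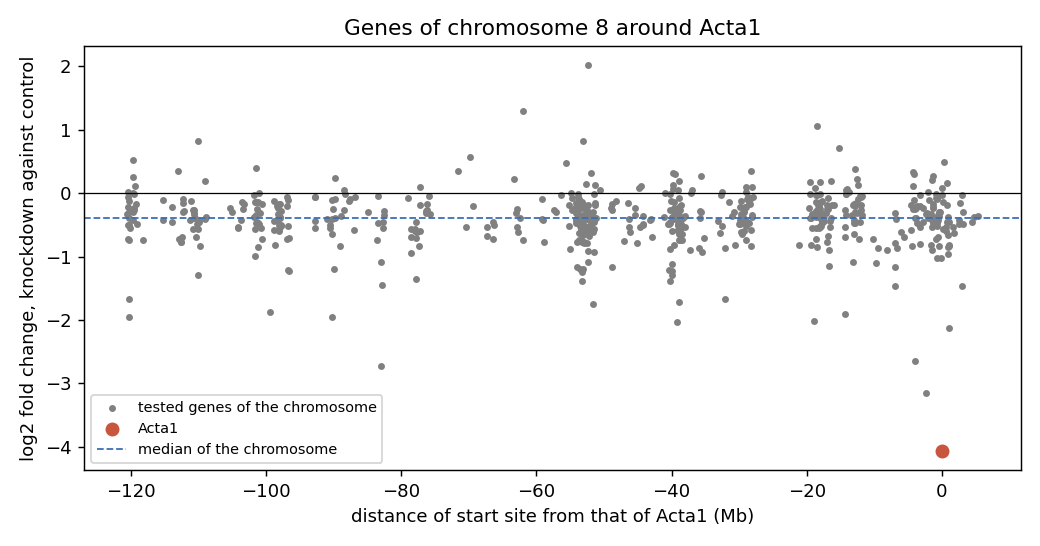
Log2 fold change, RBMS1 knockdown against scrambled control, of each tested gene of chromosome 8 (grey points) by the distance of its start from that of Acta1 in Mb, with Acta1 as the red point and the median of the chromosome, -0.38, as a dashed line. Most genes lie just below 0 along the whole chromosome, and Acta1 at -4.06 is the lowest point.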

How the data were processed

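Stranded, ribosomal RNA-depleted libraries of 6 samples were sequenced. According to the methods and the submitters' processing notes, reads were trimmed (Trim Galore 0.6.7), mapped to GRCm38 (STAR 2.7.10a) and quantified with Salmon 1.9.0. The authors deposited the resulting estimated counts of all samples in 1 table, not normalized. The annotation release is not given in the sources used here. Salmon divides reads that match several transcripts, which bears on Actb and Actg1.

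The estimated counts were rounded to whole numbers. They were fitted with edgeR 4.0.16 under R 4.3.3, using filterByExpr, TMM scaling, estimateDisp, glmQLFit and glmQLFTest with the group as the only term, and p-values were adjusted by the Benjamini-Hochberg method over all tested genes. Of 45706 genes, 26300 had no count and 11440 were tested. The fitting was tested on simulated data. Positions, exon lengths and coding sequences came from GENCODE M21 (GRCm38), which held 11402 of the tested genes, and promoters from RefSeq (GRCm38.p6). Total counts of 3142695 to 11073098 set the limit of 3 counts per sample.

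The 10 genes and the gene lists were chosen with earlier results of these data known. One further list is not reported here. The text names the 10 genes, Actc1, Rbms1, the called genes (at most 5) and the 2 most abundant tested genes of each list, and the 5 genes nearest to Acta1. Other genes were named after their values were seen. The smallest p of an exact permutation test with 3 samples per group is 0.1, so the model alone was used. The same replicate numbers did not mark deviations in common (correlations of -0.14, 0.08 and -0.03). Alternatives were DESeq2 1.42.0, limma-voom (limma 3.58.1), other scalings and filters, unrounded values, the replicate number as a block, removal of chromosome medians, and each sample left out in turn. The earlier quasi-likelihood estimate was added after seeing the data.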

Additional observations from a re-analysis of the deposited data

How the results depend on the processing

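For Acta1, whose fall chose the group, the log2 fold change ran from -4.62 to -3.67 over 17 alternatives, given as a description. Of the other genes of the group, none was called except Acta2 and Actg2 without RBMS1 knockdown replicate 1, so the number called over the left-out samples ranged from 1 to 3. The listed genes called numbered 1 with DESeq2 and 0 to 5 with a sample left out, the 5 again without RBMS1 knockdown replicate 1. Over all tested genes, 140 were called (53 at an adjusted p under 0.05), against 430 with DESeq2, 268 with no filter on low counts, 39 with the replicate block, 73 with chromosome medians removed and 12 to 696 with a sample left out. Leaving out scrambled control replicate 1, 2 or 3 gave 21, 12 or 32 calls, and leaving out RBMS1 knockdown replicate 1 or 2 gave 696 or 38. The cause of these changes was not tested.

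Of 153 fold changes under alternatives, 17 changed direction, none of them past the threshold. With limma-voom, Acta2 was at -0.68 and Tpm1 at -0.11. With library sizes alone, which raised the median of all genes by 0.37 and left 33.3% of calls lower in place of 74.3%, Actb was at 0.17, Actg1 at 0.10, Myl9 at 0.062 and Tpm2 at 0.16, each below that shift. With a sample left out, the log2 fold change ranged from -0.15 to 1.09 for Acta2, -0.42 to 0.039 for Actb, -0.54 to 0.081 for Actg1, -0.78 to 0.20 for Myl9, -0.36 to 0.55 for Tpm1, -0.71 to 0.10 for Tpm2, 0.70 to 2.23 for Actg2 and 0.33 to 1.51 for Tagln, the last genes being lowest without RBMS1 knockdown replicate 3. With the replicate block Tpm1 was at -0.079, and 1 gene of the group was called. The replicate numbers were no evident pairing, since not every sample correlated best with its own number. Low depth limits Actg2, Myl9 and Tagln in scrambled control replicate 2, where 3 counts equal 1.49 CPM.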
